A study of Rattus norvegicus with 6 samples.

Results

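The Usp36 window is a stretch of CpGs on chromosome 10 of the rat genome build rn4, chr10:108269686-108269764, and it was examined here with the 20 kb on either side in hippocampal DNA of iron-deficient and iron-sufficient pups. The region from 108249686 to 108289764 held 756 of the 22152541 CpGs listed in any of the 6 files, and 338 of the 756 had a coverage of at least 10 reads in every sample. The window itself held 21 CpGs, all of which reached that coverage. The study selected the window on its methylation difference between the groups in these same samples, so every methylation difference inside it is given below as a description without a test. Whole-genome bisulfite sequencing, which reads unmethylated cytosines as thymines, had been performed on hippocampi of Sprague-Dawley pups at postnatal day 15, with 3 biological replicates per group. Dams of the iron-deficient group received a diet of 4 ppm iron from gestational day 2 to postnatal day 7 and a diet of 200 ppm thereafter. Dams of the iron-sufficient group received the diet of 200 ppm throughout. Iron-sufficient replicate 2 listed 638 of the 756 CpGs of the region and the other samples 715 to 751. The labels give neither sex nor litter, so littermates cannot be told from unrelated pups. Because the tissue was whole hippocampus, a change in the mixture of cell types and a change within cells cannot be told apart in any value below. Median coverage per CpG was 17 to 33 reads in the 6 samples, and 4686933 CpGs of the genome had at least 10 reads in all of them.

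Usp36 encodes a ubiquitin-specific peptidase of the nucleolus, which removes ubiquitin from its substrates and is known for its role in ribosome production and for stabilizing the transcription factor c-Myc. Its neighbour Cyth1 encodes cytohesin 1, a guanine nucleotide exchange factor for ARF GTPases, which act in membrane traffic. In mammals most CpGs are methylated, whereas CpG-rich promoters of broadly expressed genes are usually free of methylation. Tandem repeats of short units are another class of sequence in which CpGs can be dense, and there they recur at regular distances.

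The window was called a promoter region, and this was checked against the promoter sequences of RefSeq. The 300 bases around the start of Usp36, 250 before and 50 after, are given below with every CG dinucleotide in capitals, because the spacing of those CpGs was used to find the promoter in the files. The promoter of Cyth1 is given for the same reason. Both sequences are from RefSeq, build GRCr8, and are written 5′ to 3′ on the minus strand, from which both genes are transcribed.

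Usp36 promoter: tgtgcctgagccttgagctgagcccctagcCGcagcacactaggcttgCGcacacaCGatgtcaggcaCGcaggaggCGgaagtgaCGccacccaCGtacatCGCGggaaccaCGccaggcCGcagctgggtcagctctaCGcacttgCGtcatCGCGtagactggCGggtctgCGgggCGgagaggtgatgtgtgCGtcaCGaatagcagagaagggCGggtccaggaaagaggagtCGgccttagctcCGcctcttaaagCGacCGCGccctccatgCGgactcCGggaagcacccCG
Cyth1 promoter: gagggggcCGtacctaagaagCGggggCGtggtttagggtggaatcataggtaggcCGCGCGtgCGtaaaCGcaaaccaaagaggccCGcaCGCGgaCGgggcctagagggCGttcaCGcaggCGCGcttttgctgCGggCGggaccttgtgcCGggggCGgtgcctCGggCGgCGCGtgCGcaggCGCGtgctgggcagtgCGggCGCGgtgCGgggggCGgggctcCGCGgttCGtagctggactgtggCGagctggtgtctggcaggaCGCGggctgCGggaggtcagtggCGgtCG

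The 29 CpGs of the Usp36 promoter matched 29 consecutive CpGs of the files, base for base in their spacing, at chr10:108296335-108296603 of rn4 and at no other place in the genome. Read this way, the start of Usp36 lay at position 108296384, 26620 bases above the window and outside the 40 kb examined. Since Usp36 is transcribed toward lower positions, the window lay on the transcribed side of this start and not upstream of it. The 41 CpGs of the Cyth1 promoter likewise matched a single place, chr10:108253370-108253660, with the start at position 108253419. That start was inside the region and 16267 bases below the window. The distance between the starts was 42965 bases by this matching and 43109 bases in GRCr8, where the gene Usp36 is 31523 bases long and its neighbours are Cyth1 and Timp2. Of 1081 promoters assigned to chromosome 10 with at least 10 CpGs, 898 (83.1%) matched at a single place of that chromosome and 0 at more than one. Only the promoters of Usp36 and Cyth1 were searched on the other chromosomes too. By this RefSeq start the window was not at the promoter, and it is called the Usp36 window here. Older annotations and other possible starts of Usp36 were not analysed. Whether it falls in an exon or an intron was not analysed, because no gene annotation of rn4 was used.

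With 29 CpGs the Usp36 promoter held more CpGs than 88.5% of the 33469 rat promoters of the same length, which held 7 at the median. Of the motifs searched on both strands, the CG dinucleotide was present in 94.5% of all promoters. The GC-box core GGGCGG occurred 2 times in the Usp36 promoter and 4 times in that of Cyth1, and 33.1% of all promoters held it. The other motifs occurred in neither sequence. The E-box CACGTG was held by 6.42% of promoters, the cyclic AMP response element TGACGTCA by 1.83% and the palindromic NRF1 motif by 0.852%. The CCAAT box was held by 37.5% and the TATA box, searched as TATAAA, by 14.2%.

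Methylation of the window, summed over its 21 CpGs, was 22.4%, 20.6% and 17% in iron-sufficient replicates 1 to 3 and reached 45.3%, 56.1% and 22.9% in iron-deficient replicates 1 to 3. The means were 20% ± 2.8 (SD, n = 3) and 41.4% ± 17 (SD, n = 3), a difference of 21.4 percentage points, or 28.4 percentage points when reads were pooled within the groups. Replicates 1 and 2 of the iron-deficient group were thus far above all iron-sufficient samples, while replicate 3 stood beside them. The difference was 14.1 percentage points without iron-deficient replicate 2 and 30.7 without iron-deficient replicate 3. The spread within the iron-deficient group was accordingly wider than in the iron-sufficient group, with a median range per CpG of 30.9 against 9.06 percentage points.

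The same samples stood out at single CpGs. Iron-deficient replicates 1 and 2 both exceeded every iron-sufficient sample at 20 of the 21 CpGs, and replicate 2 exceeded replicate 1 at 21 of 21. Iron-deficient replicate 3 was above every iron-sufficient sample at 7 CpGs, within their range at 11 and below all of them at 3. The groups therefore did not overlap at 7 of 21 CpGs, where the iron-deficient group was higher, and such CpGs made up 2.68% of the genome. WWE, the method of the study for calling differentially methylated regions, sets criteria for a single CpG. They are 10 or more reads in all samples, group means weighted by coverage that differ by 10 or more percentage points, and a p-value up to 0.05 in a test of those means. The criteria were met by 16 of 21 CpGs, all higher in the iron-deficient group. The share in the genome was 3.21%. Neither count is evidence apart from the selection of the window, and adjacent CpGs are read from largely the same molecules because the window is shorter than a read.

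**Figure D1:**
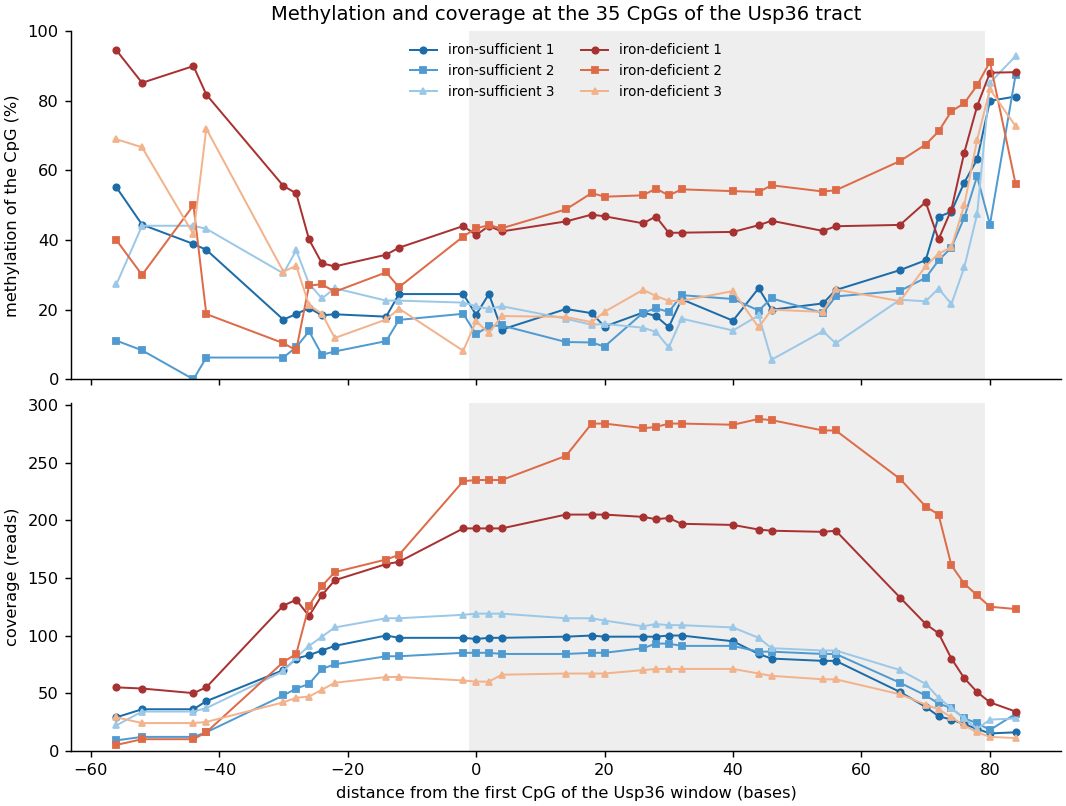
Methylation in percent (top) and coverage in reads (bottom) of the 35 CpGs of the tract that holds the Usp36 window, against the distance in bases from the window's first CpG, with 1 line per sample and the window shaded. Iron-deficient replicates 1 and 2 are above the other 4 samples in both panels across most of the window, and methylation climbs at the right edge as coverage drops.

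The weighted difference was positive at every CpG of the window and ranged from 20.2 to 32.6 percentage points. It was smallest at the CpGs 2, 0 and 4 bases from the window's start, with 20.2, 21.4 and 22.4 percentage points. It was largest at the CpGs at 20, 46 and 18 bases, with 32.6, 31.8 and 31.4 percentage points. At the CpG at 20 bases, methylation was 15.2% of 99 reads, 9.41% of 85 and 15.9% of 113 in the iron-sufficient replicates. The iron-deficient values were 46.8% of 205 reads, 52.5% of 284 and 19.4% of 67, and the exact (Clopper-Pearson) 95% interval of that last value ran from 10.8% to 30.9%. This interval held the value of iron-sufficient replicates 1 and 3, and it covers counting error only. The last CpG, at 78 bases, had 63.2%, 58.3% and 47.4% in iron-sufficient against 78.4%, 84.4% and 68.8% in iron-deficient pups, a weighted difference of 25.2 percentage points. Only 16 to 135 reads covered it, and the groups did not overlap there.

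Methylation was not even along the window. Over its first 10 CpGs the median was 18.8%, 15.4% and 16.7% in iron-sufficient pups, against 44.4%, 52.6% and 18.8% in iron-deficient pups. Over its last 6 CpGs the medians were 47.4%, 36.0% and 24.5%, and 49.8%, 74.1% and 37.0%. All samples thus gained methylation toward the higher-coordinate end, where coverage fell, for instance in iron-sufficient replicate 2 from 84 to 93 reads over the first 10 CpGs to 24 reads at the last. No CpG of the window was at exactly 0% or 100% in any sample (0 of 126 values), whereas 26.5% of the values of flank CpGs with a mean of 20% to 60% were, and 57.7% of those with a mean over 60%. These shares were not compared at equal depth. The samples had 56.6 to 246 reads per CpG in the window and 34.4 to 65.7 in the flanks beyond 1 kb.

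Just outside the window the order of samples was partly kept. The CpG 2 bases before it had 24.5%, 18.8% and 22% in iron-sufficient against 44.0%, 41.0% and 8.2% in iron-deficient pups. The CpG 2 bases after it, at 80 bases from the start, had 80.0%, 44.4% and 85.2%, and 88.1%, 91.2% and 83.3%. The order was lost at the next CpG, at 84 bases, with 81.3%, 87.5% and 92.9%, and 88.2%, 56.1% and 72.7%. At the CpG 42 bases before the window, iron-deficient replicate 2 had 18.8%, below iron-sufficient replicates 1 and 3 with 37.2% and 43.2%. None of these CpGs met the WWE criteria.

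The window was part of a longer run of closely spaced CpGs. From 108269630 to 108269770 the files listed 35 CpGs within 140 bases, and the distances between neighbours were even numbers in 34 of 34 cases, 20 of them exactly 2 bases. The run was bounded by distances of 144 and 170 bases to the nearest other CpGs. Of all distances of at most 20 bases between neighbouring CpGs of the genome, 54.0% were even. The sequence of the run was not read here, since no genome of rn4 was used. Of the windows that the study displayed beside Usp36, that of Gucy2c had 8 of 8 even distances, and that of Tnni1 had 30 of 30 distances that were multiples of 3, of which 28 were exactly 3 bases. The run is called the tract here, and its definition (at least 20 listed CpGs, each an even distance of at most 20 bases from the next) was chosen after the data were seen.

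In the 14 CpGs of the tract outside the window, 13 of them with 10 reads in all samples, methylation was 25.1%, 16.1% and 31.4% in the iron-sufficient replicates. It was 48.8%, 35.6% and 27.4% in the iron-deficient replicates. Iron-deficient replicates 1 and 2 were again the highest, and the mean group difference was 13.1 percentage points, but replicate 3 was below iron-sufficient replicate 3. Replicate 2 had 125 and 123 reads at the highly methylated CpGs at 80 and 84 bases, where no other sample had more than 42. Over the 8 CpGs with 20 reads in all samples, which leave both out, it had 27.6% against 25.8% in iron-sufficient replicate 3. The mean group difference was then 10.1 percentage points. None of the 13 CpGs met the WWE criteria or had groups that did not overlap (0 of 13 for each, against 3.21% and, for groups higher in iron deficiency, 2.68% of the genome). These CpGs share reads with the window and were given no test of their own, and they are counted among the flank CpGs below.

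Coverage was highest in the same 2 samples as methylation, iron-deficient replicates 1 and 2. WWE weights means and variances by coverage and requires a minimum of it, so coverage entered the selection of the window and is given without a test. The window had 75.8, 73.4 and 88.7 reads per CpG in iron-sufficient pups, against 166.5, 246.0 and 56.6 in iron-deficient pups. Divided by the reads per CpG of the 552 flank CpGs listed in every sample, it was 2.21, 2.35 and 1.85 in iron-sufficient against 3.29, 4.28 and 1.93 in iron-deficient pups. The means were 2.14 ± 0.26 (SD, n = 3) and 3.16 ± 1.18 (SD, n = 3), a difference of 1.03. It was 0.470 without iron-deficient replicate 2 and 1.65 without iron-deficient replicate 3.

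The reads were then split into methylated and unmethylated reads, with the flanks as the divisor. Methylated reads of the window relative to the flanks were 0.496, 0.483 and 0.313 in iron-sufficient against 1.49, 2.40 and 0.441 in iron-deficient pups. Unmethylated reads were 1.72, 1.87 and 1.53, and 1.80, 1.88 and 1.49. Relative to the flanks, the mean of the unmethylated reads was thus 1.70 ± 0.17 (SD, n = 3) and 1.72 ± 0.21 (SD, n = 3) in the groups, a difference of 0.0156. Methylated reads differed by 1.01, with means of 0.431 ± 0.102 (SD, n = 3) and 1.44 ± 0.98 (SD, n = 3). Iron-deficient replicate 3 lay within the iron-sufficient range of methylated reads. Relative to the median coverage of the file, all reads of the window were 3.61, 3.34 and 3.17, and 6.17, 7.45 and 3.33. The split was not made on that scale, so the near equality of unmethylated reads is given for the flanks as divisor only. The split was made after the data were seen and uses the measure that chose the window, so no test is given. The part of the additional methylated reads in the methylation difference was not tested.

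**Figure D2:**
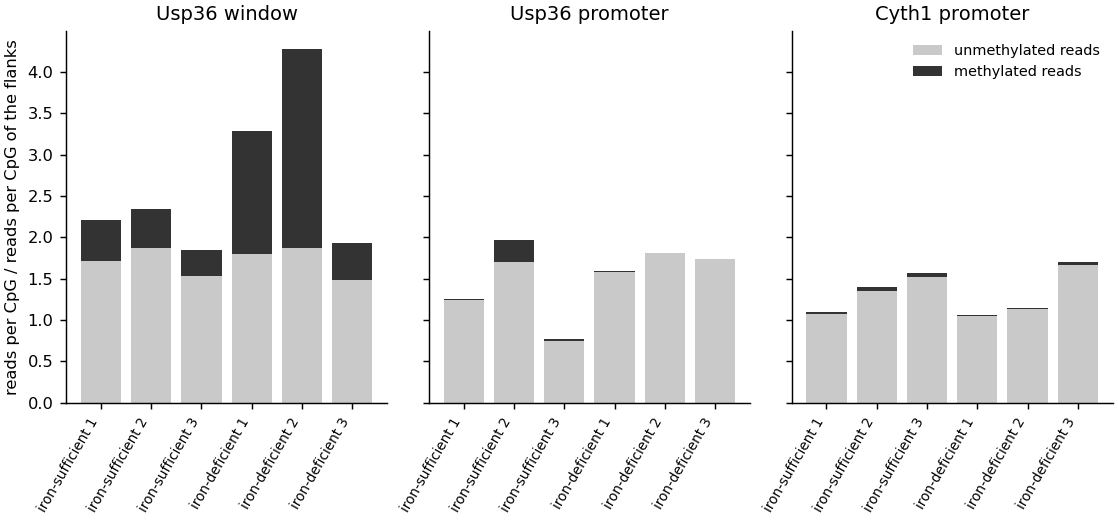
Reads per CpG of the Usp36 window and of the promoters of Usp36 and Cyth1, divided by the reads per CpG of the flanks in the same sample, as stacked bars of unmethylated (grey) and methylated (black) reads, 1 bar per sample. In the window the grey parts are 1.49 to 1.88 in all 6 samples, while the black parts are 1.49 and 2.40 in iron-deficient replicates 1 and 2 and at most 0.496 in the other samples.

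The tract was set beside the other tracts that met the same spacing definition, to show how they behaved in these libraries. Their sequences were not read, and their spacing was not alike. Distances of exactly 2 bases were 58.8% of those in the Usp36 tract, while some other tracts had none. The genome held 406 tracts, and 118 had at least 10 CpGs with 10 reads in all samples, the Usp36 tract included. Over the whole Usp36 tract the difference was 19.3 percentage points, with means of 21.5% ± 2.1 (SD, n = 3) and 40.7% ± 14.5 (SD, n = 3). Among the 117 others the median difference was 2.90 percentage points and 12 had an increase at least as large. The groups did not overlap at 15 of the 117 (12.8%), 13 of them higher in the iron-deficient group and 2 lower. Mean methylation of the others was 67.7% at the median, and 31 of them had a mean between 20% and 60%, as the Usp36 tract did. Coverage of the Usp36 tract was 3.92 times the median of its file, and only 2 of the others reached that value, the median being 1.64. The ratio of relative coverage in the iron-deficient to that in the iron-sufficient group was 1.53 for the Usp36 tract and 1.06 at the median of the others, of which 10 had a ratio at least as large. Tracts are not replicates of one another, and these values are a description.

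**Figure D3:**
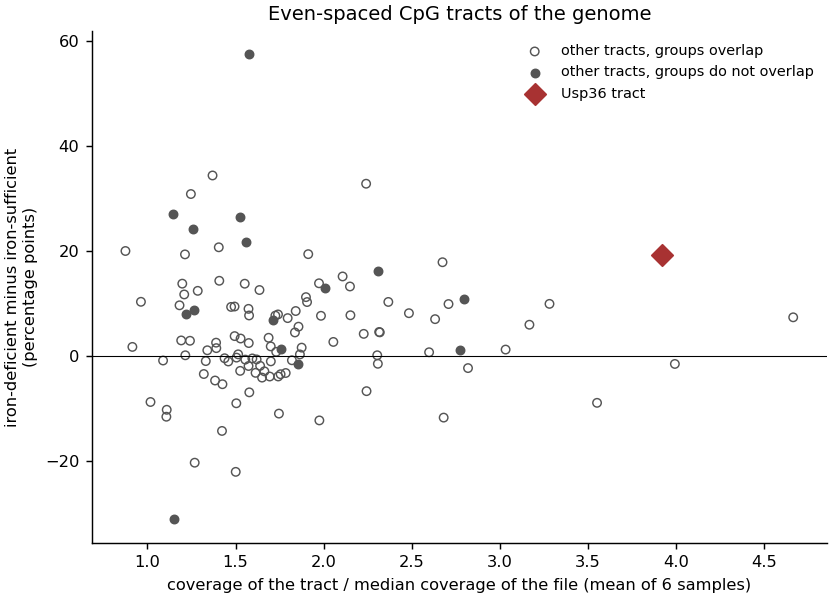
Difference in methylation between the groups in percentage points against coverage relative to the file's median (mean of 6 samples), for 118 tracts of evenly spaced CpGs. Filled circles are tracts whose groups do not overlap, and the diamond is the Usp36 tract, which lies far to the right at 3.92 and at 19.3 percentage points, with 12 other tracts at or above its height.

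Summed over a whole flank, the groups overlapped on either side of the window. In the 20 kb below the window, 223 of 408 CpGs had the coverage needed, and methylation was 28.3%, 25.7% and 29.4% in iron-sufficient against 30.2%, 31.0% and 28.7% in iron-deficient pups. The difference of 2.15 percentage points had p = 0.2 in a two-sided exact permutation test, for which the smallest possible p is 0.1. At a coverage minimum of 20 it was 4.12 percentage points (exact permutation p = 0.3). It was 0.783 percentage points with p = 0.6 in the same exact permutation test when the flank began 1000 bases from the window, which leaves out the CpGs of the tract. In the 20 kb above the window, 94 of 327 CpGs gave 83.3%, 80.3% and 86.1%, and 88.4%, 85.9% and 84.3%. That difference was 2.97 percentage points (exact permutation p = 0.3), and 3.45 (exact permutation p = 0.2) when the flank began 1000 bases away. The lower flank was less methylated than the higher flank and holds the CpG-rich Cyth1 promoter. Within 1 kb, with the tract left out, the 9 CpGs with coverage differed by 4.87 percentage points (exact permutation p = 0.6), or by 1.24 when reads were pooled within the groups. At a coverage minimum of 5, 15 CpGs differed by 8.63 percentage points (exact permutation p = 0.3). Summed over both sides beyond 1 kb, the 295 CpGs with coverage differed by -0.52 percentage points (exact permutation p = 0.6), opposite in sign to either side alone. This sign depended on the coverage minimum. The difference was 0.52 percentage points at a minimum of 20 (exact permutation p = 0.9) and -1.52 at a minimum of 5 (exact permutation p = 0.2).

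**Figure D4:**
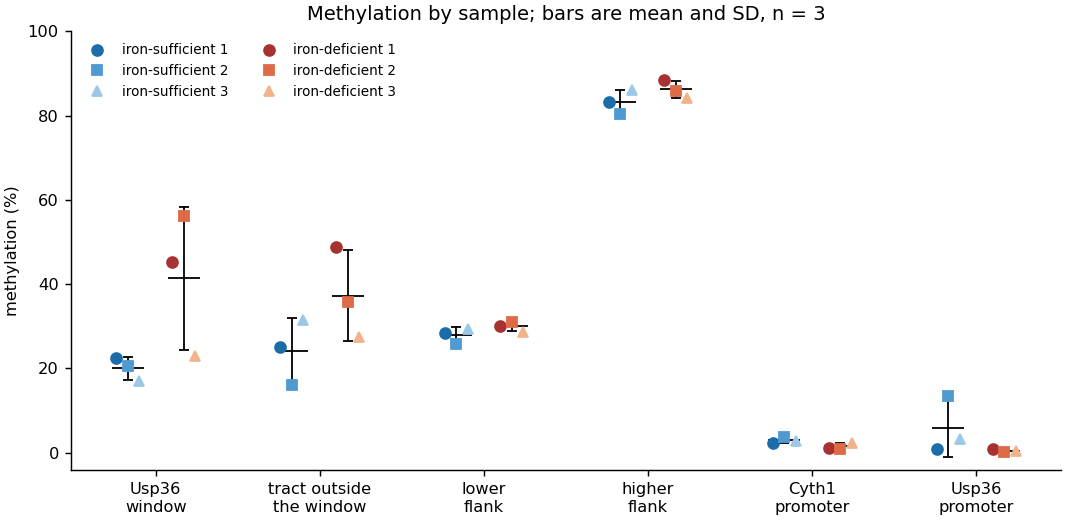
Methylation in percent of the Usp36 window, of the tract outside it, of the flanks and of the promoters of Cyth1 and Usp36, with 1 point per sample and the mean and SD of 3 replicates per group as black bars. Only in the window and the adjoining tract do iron-deficient replicates 1 and 2 stand above the iron-sufficient samples by more than 4 percentage points. In the adjoining tract, replicate 2 had 27.6% against at most 25.8% in the iron-sufficient samples at a coverage minimum of 20.

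Of the 317 flank CpGs, 3 met the WWE criteria, or 0.946% against 3.21% of the genome. The count was not stable, with 4 of 327 to 11 of 433 when single replicates were left out. The share of the genome was not computed for those settings. The CpG at +9271 bases from the window's start had 5.56% of 18 reads and 0% of 12 and 12 reads in the iron-sufficient replicates, where a count of 0 in 12 reads allows up to 25%. In the iron-deficient replicates it had 46.2% of 13 reads, 28.8% of 59 and 56.5% of 23. The CpG at -16463 bases was at 0% in all iron-sufficient replicates, of 49, 22 and 13 reads, with exact upper limits of 7.25%, 15.4% and 24.7%. It was at 15.2%, 9.84% and 0% in iron-deficient pups, the last of 23 reads, with an exact upper limit of 14.8%. The CpG at -6023 bases went the other way, with 59.1%, 78.2% and 74.4%, and 64.6%, 51.8% and 65.2%. The groups did not overlap at 6 flank CpGs that were higher and 6 that were lower in the iron-deficient group, together 3.79% of the 317, with 2.68% and 2.43% of the genome's CpGs as the background.

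In tiles of 1000 bases the flanks were mostly methylated. Of the 37 tiles of the region other than that of the window, 31 had a mean over 60%, 3 between 20% and 60% and 3 under 20%. The low tiles were 17 and 16 kb below the tile of the window, at 4.47% and 2.71% around the Cyth1 promoter, and 9 kb below, at 15.1%. None of the 37 tiles passed edgeR's quasi-likelihood test on methylated and unmethylated counts at a Benjamini-Hochberg adjusted p of 0.05, and 0% of the 894922 tiles of the genome did. At an unadjusted p under 0.05, edgeR gave 1 of 37 tiles against 3.01% of the genome, and limma gave 0 adjusted and 1 unadjusted, against 0 and 4.34% of the genome. Since edgeR called no tile of the genome, the absence of calls in the region does not show that its tiles were alike between the groups. The groups did not overlap at 5 of the 37 tiles, all higher in iron deficiency, and the share of the genome's tiles was not computed. Among them was the tile directly below that of the window, with 51.8%, 51.6% and 51.2%, and 54.6%, 69.8% and 53.7%. Its difference was 7.84 percentage points, with an unadjusted p of 0.47 by edgeR.

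The tile with the smallest p lay 8 kb below the tile of the window. It had 85.6%, 83.1% and 93.0% in iron-sufficient against 95.0%, 96.1% and 94.9% in iron-deficient pups, a difference of 8.09 percentage points with an unadjusted p of 0.039 and an adjusted p of 1 by edgeR. The largest increases were 22.7 percentage points 18 kb above, where iron-sufficient replicate 2 had 45.7% and the other iron-sufficient replicates 82.7% and 83.7%, 12.3 percentage points 8 kb above and 10.2 percentage points 18 kb below. The largest decreases were -22.5 percentage points 15 kb below, -6.95 percentage points 6 kb below and -6.48 percentage points 7 kb above. The adjusted p of edgeR was 1 for each of these tiles. Tiles included CpGs read in every sample at any coverage, so their percentages can weigh different CpGs in different samples. In the tile 15 kb below, the CpG at -14733 bases from the window's start had 1 read in iron-deficient replicate 1, at 100%. The same CpG had 95 reads in iron-deficient replicate 2, at 0%.

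**Figure D5:**
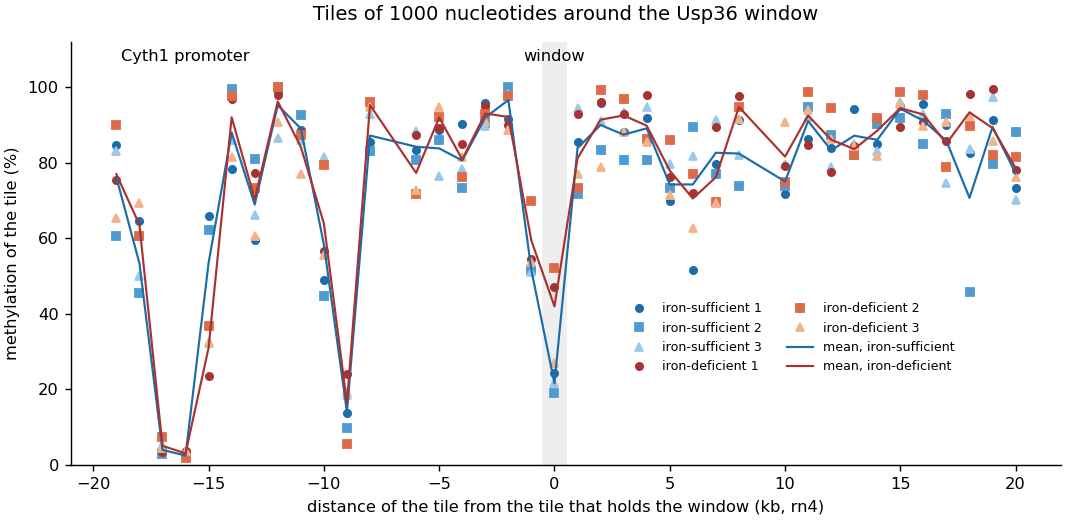
Methylation in percent of the tiles of 1000 bases around the Usp36 window against their distance in kb from the tile that holds it (shaded), with 1 point per sample and a line through each group's mean. The lines run together over most of the 40 kb, with low tiles at the Cyth1 promoter and 9 kb below the window, and lie more than 20 percentage points apart at the tile of the window, 15 kb below it and 18 kb above it.

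The promoter of Usp36, outside the 40 kb, was almost unmethylated. It had 0.805%, 13.5% and 3.15% in iron-sufficient against 0.809%, 0.0662% and 0.405% in iron-deficient pups, means of 5.8% ± 6.8 (SD, n = 3) and 0.4% ± 0.4 (SD, n = 3). The groups overlapped, with a difference of -5.39 percentage points and p = 0.2 in a two-sided exact permutation test. The overlap was that of 0.805% and 0.809%, and over the 17 CpGs with 20 reads in all samples the groups did not overlap, with a difference of -6.86 percentage points (exact permutation p = 0.1, the smallest possible). The difference rested on iron-sufficient replicate 2, in which 6 of 29 CpGs were over 40% methylated and 21 were at 0%, and it was -1.55 percentage points without that replicate. Iron-deficient replicates 1 and 2, the highest in the window, were thus below 1% in the promoter. Its coverage relative to the flanks was 1.25, 1.97 and 0.776, and 1.60, 1.81 and 1.74 (exact permutation p = 0.4). Relative to the median coverage of the file it was 2.04, 2.80 and 1.33, and 3.00, 3.16 and 3.01, so that the groups did not overlap on that scale (exact permutation p = 0.1, the smallest possible).

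The promoter of Cyth1 was as low, with 2.39%, 3.66% and 2.89% in iron-sufficient against 1.23%, 0.962% and 2.29% in iron-deficient pups. All iron-deficient replicates were below all iron-sufficient replicates, by -1.49 percentage points between the means of 3.0% ± 0.6 (SD, n = 3) and 1.5% ± 0.7 (SD, n = 3). The exact permutation p of 0.1 is the smallest that 3 against 3 samples allow, so it cannot pass a threshold of 0.05.

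The tiles of the genome most like that of the window were found by the root mean square difference of the 6 percentages. The window's tile had 24.3%, 18.9% and 21.6%, and 47.0%, 52.0% and 26.9%, and the 6 percentages of the window itself were the reference. Of 894921 other tiles, 12 were within 5 percentage points and 977 (0.109%) within 10. The nearest were on chromosomes 8, 14, 1, 2 and 12, at 2.99, 3.25, 3.30, 3.41 and 4.10 percentage points. On chromosome 8 the tile from 75687000 to 75687999 had 22.2%, 18.2% and 16.2%, and 41.1%, 56.1% and 28.4%. Coverage of these 5 tiles was 0.965 to 1.55 times the file's median, below the 3.65 of the window's tile, and they were chosen for their likeness in methylation alone. The closest tile within the 40 kb differed by 23.2 percentage points.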

How the data were processed

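Whole-genome bisulfite sequencing of 3 iron-sufficient and 3 iron-deficient hippocampi was analysed. The paper states that samples were sequenced as paired-end or as single reads, without saying which sample had which format. A difference of format between samples could therefore not be told from other differences in coverage. The authors trimmed adapters, aligned reads to rn4 with BS Seeker, kept read 1 at bases covered by both mates, and joined the calls of both strands of a CpG. The files deposited by the authors list for each CpG a methylation level as a fraction, and its read count, neither of them normalized. Removal of duplicate reads, and whether positions count from 0 or 1, are not given in the sources used here. Intervals cover counting error only, since PCR copies of a molecule could not be recognised.

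Multiplying fraction by coverage gave methylated counts, whole within 1.2e-10 reads. CpGs needed a coverage of 10 in all samples, and each region's percentage per sample entered a two-sided exact permutation test. For tiles of 1000 bases, 5 CpGs read in every sample, at whatever coverage, and a total of 50 reads per sample were enough. The tiles were fitted over the genome with edgeR 4.0.16 (quasi-likelihood, Benjamini-Hochberg), with limma 3.58.1 as the alternative (R 4.3.3, Python 3.11.15, scipy 1.17.1). The edgeR test and the WWE criteria were also run on simulated data, for WWE with independent reads and no variation between replicates. No result given here rests on those runs. Promoters were located by matching the distances between CpGs of RefSeq sequences (GRCr8) to those in the files.

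The window, the tests and the motif list were chosen with earlier results of these data known. Named CpGs were the 3 largest, the 3 smallest, the first and the last of the window. Named tiles were the 3 with the smallest p and the 3 largest changes in each direction, and the 5 tiles of the genome closest to the window. The tile directly below that of the window was added after the values were seen. Flank CpGs were named when they met the WWE criteria, a choice made after their values were seen. Alternatives varied the coverage minimum, the weighting, the WWE thresholds, the tile definition, the flank and window borders, a replicate block and leaving out single replicates.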

Additional observations from a re-analysis of the deposited data

How the results depend on the processing

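Under the alternatives tried, the differences of the window, both flanks, both promoters and the window's coverage kept their direction, and none of the tested ones moved to the other side of the threshold. The smallest exact permutation p possible with all samples is 0.1, so this says nothing about their stability. The tiles called stayed at 0 in all 11 alternatives. Leaving out single replicates gave 14.1 to 30.7 percentage points for the window, 1.07 (without iron-deficient replicate 2) to 3.13 for the lower flank, 1.69 (without iron-sufficient replicate 2) to 3.59 for the higher flank, -7.90 to -1.55 for the Usp36 promoter and -1.89 to -1.15 for the Cyth1 promoter. It gave 0.470 to 1.65 for the coverage ratio and 0 for the called tiles. At a coverage minimum of 20 the lower flank differed by 4.12 and the higher flank by 1.92 percentage points, and without a minimum by 2.55 and 1.80. The 3 of 317 flank CpGs that met the WWE criteria became 8 of 407 at a coverage minimum of 5, 1 of 164 at a minimum of 20, 1 at a minimum difference of 20 percentage points, 0 at a p-value of at most 0.01, 1 with unweighted means and 4 of 327 to 11 of 433 with single replicates left out, highest without iron-sufficient replicate 2. The share of the genome under these settings was not computed, so these counts have no background. The number of CpGs with the coverage needed changed only with the coverage minimum and with replicates left out. The promoters, and the coverage ratio with the replicate block, were added after the data were seen.

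Correlations of deviations from the group means were 0.0049, 0.0021 and 0.0025 for the same replicate number, and -0.0038 to 0.00071 for different numbers. The values for the same number were the largest, though all were small. Whether samples of the same number shared a litter was not tested. With the replicate block the window difference was 21.4 percentage points (SD of the pair differences 14.9, n = 3), and exact permutation p was 0.5 for the lower flank, the higher flank and the Usp36 promoter, and 0.25, the smallest that 3 pairs allow, for the Cyth1 promoter. The difference of the window's coverage ratio was 1.03 with the block too. The edgeR fit with the block called 0 tiles, and 0 of 37 had an unadjusted p under 0.05, against 0 and 2.80% of the genome. The count of 1 tile with an unadjusted p under 0.05 held in 4 of 11 alternatives and was 0 in the other 7.

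Depth also limits the flanks: 317 of 735 listed flank CpGs had 10 reads in all samples.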
